A study of Rattus norvegicus with 6 samples.

Results

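Transcripts of 10 genes were followed through renal cortex of rats given o-anthranilic acid: Nfe2l2 and Keap1, which encode the transcription factor Nrf2 and its repressor, and 8 redox enzymes and related proteins among the classic Nrf2 targets outside glutathione metabolism (Nqo1, Ephx1, Pir, Txnrd1, Txn1, Prdx1, Srxn1 and Osgin1). Every non-control probe whose accession maps to 1 of these rat symbols was taken, which gave 17 probes for the 10 genes, of 61526 probes and 15277 named genes used in all. Probes were matched by gene identity alone, but the 10 genes were picked with earlier results of these samples known, so their counts below are descriptions and no independent evidence of a direction. Txnrd1 had 4 probes, Nfe2l2, Nqo1, Srxn1 and Pir had 2 each, and the other 5 genes had 1.

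3 male Sprague-Dawley (Crl:CD(SD)) rats had received o-anthranilic acid (ortho-aminobenzoic acid, a product of tryptophan breakdown through the kynurenine pathway) at 1000 mg/kg/day, and 3 had received the vehicle, corn oil, all for 4 weeks and on the same basal diet. The animals were 5 weeks old when bought, and 1 dose and 1 time were studied. Total RNA of each animal's renal cortex was labelled with Cy3 and measured on its own single-colour Agilent array. The cortex is a mixture of cell types, so a changed share of cells of a type and a changed amount of RNA per cell cannot be told apart.

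Nrf2 is held in the cytoplasm by Keap1, an adaptor that delivers it to a Cul3 ubiquitin ligase for breakdown. Electrophiles and oxidants modify cysteines of Keap1, Nrf2 then accumulates in the nucleus, pairs with small Maf proteins and binds antioxidant response elements in its target genes. The control is exerted largely on the protein, and the mRNA of Nfe2l2 is a poor gauge of it. In the kidney the pathway is known for the induction of detoxifying enzymes in the proximal tubule.

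The windows shown are the start regions, as RefSeq annotates them on GRCr8, of the 5 genes with a probe on which the treated and vehicle animals did not overlap. Each runs 5′ to 3′ on the gene's strand over 300 bases, 250 before the annotated start and 50 after it. Capitals mark letters that match the core of the antioxidant response element, TGACNNNGC, on either strand.
Nqo1 (chr19:52220218-52220517, minus strand): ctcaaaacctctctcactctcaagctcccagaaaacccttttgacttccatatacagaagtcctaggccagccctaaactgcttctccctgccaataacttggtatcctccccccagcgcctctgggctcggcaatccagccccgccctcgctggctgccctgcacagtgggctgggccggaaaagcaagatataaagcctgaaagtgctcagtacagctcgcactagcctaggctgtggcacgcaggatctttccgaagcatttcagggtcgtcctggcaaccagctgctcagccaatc
Pir (chrX:33851000-33851299, minus strand): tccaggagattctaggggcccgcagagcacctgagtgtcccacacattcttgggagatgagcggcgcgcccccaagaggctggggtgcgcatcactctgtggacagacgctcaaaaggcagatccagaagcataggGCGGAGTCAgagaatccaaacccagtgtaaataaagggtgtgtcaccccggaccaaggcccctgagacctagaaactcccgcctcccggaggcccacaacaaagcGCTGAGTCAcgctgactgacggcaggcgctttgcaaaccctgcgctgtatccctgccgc
Ephx1 (chr13:95263068-95263367, minus strand): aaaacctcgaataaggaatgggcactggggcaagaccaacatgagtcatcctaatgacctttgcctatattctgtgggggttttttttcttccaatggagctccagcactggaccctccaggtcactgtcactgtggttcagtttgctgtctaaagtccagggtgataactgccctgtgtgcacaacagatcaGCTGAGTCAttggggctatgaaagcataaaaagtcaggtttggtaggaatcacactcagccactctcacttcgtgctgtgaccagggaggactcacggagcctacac
Prdx1 (chr5:135383656-135383955, plus strand): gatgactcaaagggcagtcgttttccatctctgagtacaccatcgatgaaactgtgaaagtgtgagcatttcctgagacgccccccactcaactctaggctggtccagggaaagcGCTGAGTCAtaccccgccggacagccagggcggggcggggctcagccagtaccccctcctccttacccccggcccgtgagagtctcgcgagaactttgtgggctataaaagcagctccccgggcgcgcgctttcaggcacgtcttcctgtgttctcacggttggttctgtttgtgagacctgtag
Txnrd1 (chr7:22755855-22756154, minus strand): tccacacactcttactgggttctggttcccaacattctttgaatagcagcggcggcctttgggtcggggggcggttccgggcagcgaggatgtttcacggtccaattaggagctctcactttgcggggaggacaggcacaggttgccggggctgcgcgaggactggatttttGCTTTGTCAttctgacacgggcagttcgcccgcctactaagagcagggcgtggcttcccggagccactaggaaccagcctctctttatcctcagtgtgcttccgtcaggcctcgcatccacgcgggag

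The window of Pir held 2 matches to the core, and those of Ephx1, Prdx1 and Txnrd1 held 1 each. The Nqo1 window held none, which says only that these letters are not in these 300 bases. Of the other genes Nfe2l2 had 1 match, downstream of its start, so 5 of the 10 genes had a match in a window. RefSeq gave 12 windows for the 10 genes, and the second windows of Txnrd1 and Ephx1 had no match. The core occurred in 12.1% of all 33469 windows of this length. In Pir, Ephx1 and Prdx1 a match read GCTGAGTCA, in which the core overlaps the AP-1 element, TGACTCA, found on either strand in 4.63% of all windows. The core of the xenobiotic response element, GCGTG, bound by the aryl hydrocarbon receptor, was found in 29.7% of all windows and in those of 7 of the 10 genes, Nqo1 and Pir among them. In Pir it shares letters with the match next to the start. A match is a description of letters and not a binding site.

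Levels are given as the log2 processed signal minus the 75th percentile of the same array, so that 0 is the array's own 75th percentile. Levels of different probes are not comparable with each other. All 17 probes were well above background on all 6 arrays. Whether transcripts differ after o-anthranilic acid was tested with limma over 41551 probes, with Benjamini-Hochberg adjustment and a threshold of 0.05.

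Nqo1 and Pir had the largest differences among the 10 genes, both higher in treated animals, and Ephx1 was higher by a smaller amount. For the thioredoxin system, Srxn1, Osgin1, Nfe2l2 and Keap1 the 95% interval of every probe included 0. By limma's adjusted p, 0 of the 17 probes passed, against 0 of 41551 over the whole array (0%), and the smallest adjusted p among the 17 was 0.359. At an unadjusted p under 0.05, 5 of the 17 probes were higher in treated animals, against 3.42% of all probes, and 0 were lower, against 5.03%. The 5 were both probes of Nqo1, both of Pir and that of Ephx1. Treated and vehicle values did not overlap on 7 of the 17 probes, all with higher treated values, against 6.3% of all probes, and on 0 with lower treated values, against 8.61%. Probes of 1 gene share their transcript: the 5 probes at an unadjusted p under 0.05 belong to 3 genes, and the 7 without overlap to 5 genes.

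Nfe2l2 (NM_031789), the gene of Nrf2 itself, was not higher in treated animals on either probe. Probe A_43_P14931 had log2 levels of 3.25, 3.24 and 3.51 in treated animals, against 3.49, 3.56 and 3.61 in vehicle animals. Probe A_64_P060598 stood at 4.0, 3.96 and 4.29 in treated animals, against 4.19, 4.21 and 4.22 in vehicle animals. On both probes treated replicates 1 and 2 lay below every vehicle animal, and treated replicate 3 lay within or above the vehicle range. The log2 fold changes were -0.22 ± 0.10 (SE) and -0.12 ± 0.10, with limma adjusted p of 0.611 and 0.769. Probe A_64_P060598 stood at -0.23 without treated replicate 3 and at -0.06 without treated replicate 2, and without treated replicate 3 both probes had an unadjusted limma p under 0.05 and neither passed after adjustment. With all 6 arrays the 95% intervals, from -0.46 to 0.02 and from -0.38 to 0.13, hold no increase above 1.09-fold.

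Keap1 (NM_057152), the repressor that senses electrophiles, had log2 levels of -0.02, 0.13 and 0.11 in treated animals, against 0.13, 0.08 and 0.21 in vehicle animals. The groups overlapped. Its log2 fold change was -0.07 ± 0.08 (SE), with a 95% interval from -0.26 to 0.13 and a limma adjusted p of 0.846.

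Nqo1 (NM_017000), a flavoprotein that reduces quinones by 2 electrons with NADH or NADPH, had the largest difference. Probe A_64_P005208 stood at -1.93, -1.17 and -0.97 in treated animals, against -2.36, -2.97 and -2.60 in vehicle animals. Probe A_44_P476733 stood at -3.84, -3.16 and -3.06 in treated animals, against -4.63, -4.65 and -4.42 in vehicle animals. The groups did not overlap on either probe, and both placed the treated animals in 1 order, replicate 3 highest and replicate 1 lowest. The treated means were 2.44-fold and 2.32-fold the vehicle means, with log2 fold changes of 1.28 ± 0.28 (SE) and 1.21 ± 0.22 and 95% intervals from 0.60 to 1.97 and from 0.69 to 1.74. Neither passed, with limma adjusted p of 0.431 and 0.359, and by unadjusted p they ranked 347 and 142 of the 41551 probes. The second probe was dim, with processed signals of 65.2 to 117 units in treated and 37.4 to 40.7 units in vehicle animals, and it stood at 0.59 on the log2 scale once normexp had been applied, against 0.97 for the first.

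Pir (NM_001009474), pirin, an iron-binding nuclear protein of the cupin family, was the other gene with both probes apart. Probe A_64_P062462 had log2 levels of 0.24, 0.42 and 0.56 in treated animals, against -0.13, -0.54 and -0.58 in vehicle animals. Probe A_43_P17743 stood at -2.88, -2.59 and -2.33 in treated animals, against -2.94, -4.05 and -3.75 in vehicle animals. On the second probe vehicle replicate 1 came within 0.06 of the lowest treated animal, and it was also the highest vehicle animal on the first. The log2 fold changes were 0.82 ± 0.15 (SE), or 1.77-fold, and 0.98 ± 0.30, or 1.97-fold, with limma adjusted p of 0.377 and 0.501. With normexp the second probe stood at 0.61, and it ranged from 0.74 without vehicle replicate 2 to 1.30 without vehicle replicate 1. As for Nqo1, the order of the treated animals was the same on both probes, replicate 3 highest and replicate 1 lowest.

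**Figure D1:**
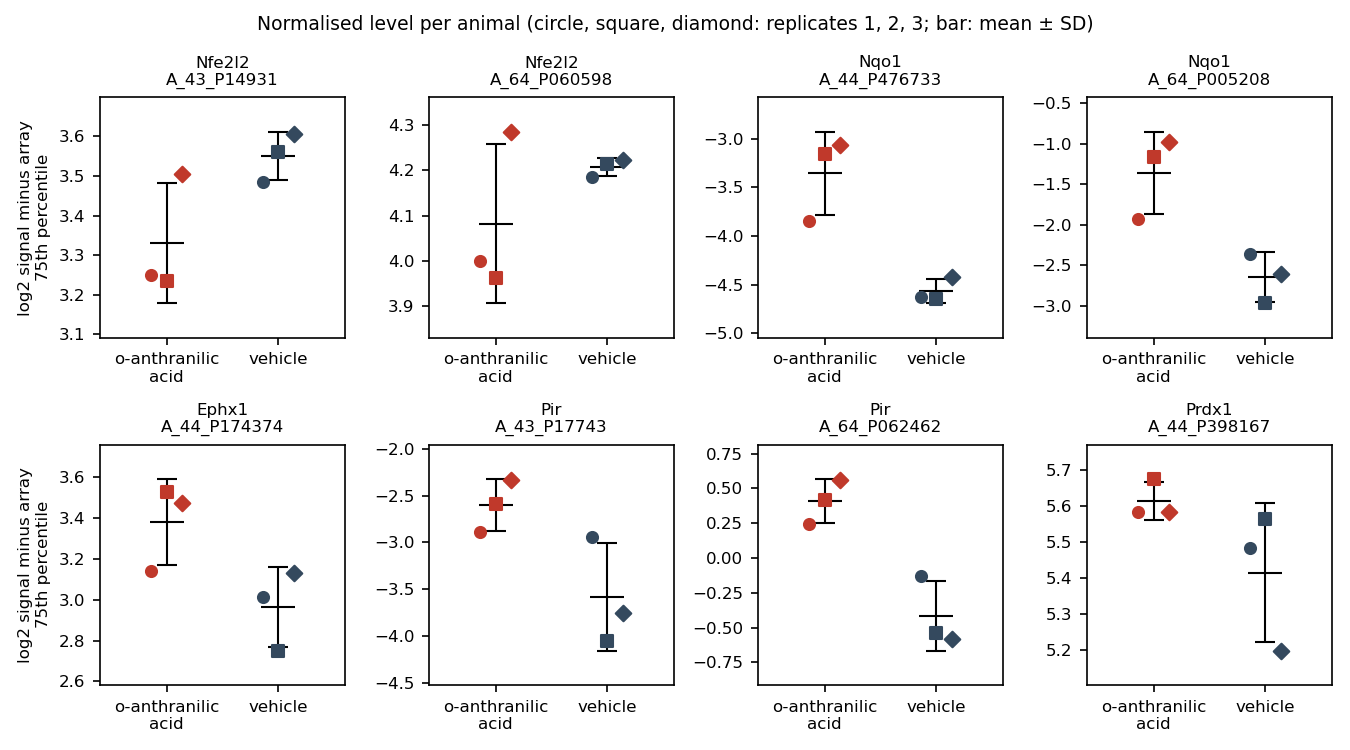
Normalised log2 level (vertical axis, log2 signal minus the array's 75th percentile, a separate scale in each panel) of 8 probes in 3 treated animals (left, red) and 3 vehicle animals (right, dark blue), each point 1 animal and the bar the mean with its SD. The treated animals lie above all vehicle animals on the probes of Nqo1, Pir, Ephx1 and Prdx1, and on the probes of Nfe2l2 only treated replicate 3 reaches the vehicle range.

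Ephx1 (NM_012844), microsomal epoxide hydrolase, which turns reactive epoxides into diols, had log2 levels of 3.14, 3.53 and 3.47 in treated animals, against 3.01, 2.75 and 3.13 in vehicle animals. The lowest treated animal, replicate 1, lay 0.0079 above the highest vehicle animal, so the separation was far smaller than the spread within either group. The log2 fold change was 0.42 ± 0.15 (SE), or 1.33-fold, with a 95% interval from 0.06 to 0.78 and a limma adjusted p of 0.547. Ephx1 is also a target of the receptors CAR and PXR, and Nqo1 of the aryl hydrocarbon receptor.

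Txnrd1 (NM_031614) is the cytosolic selenoenzyme that reduces thioredoxin with NADPH, and its 4 probes did not point 1 way. Probe A_44_P456738 stood at 1.41, 1.37 and 1.5 in treated animals, against 1.21, 1.37 and 1.28 in vehicle animals, a log2 fold change of 0.14 ± 0.08 (SE). The groups did not overlap there, by a gap of 0.0057. The other Txnrd1 probes, A_44_P134070, A_44_P554454 and A_64_P076475, had log2 fold changes of -0.30 ± 0.19, -0.18 ± 0.11 and -0.17 ± 0.10, with overlapping groups. On A_44_P134070 the treated animals lay between 1.00 and 1.05, and the vehicle animals stood at 1.70, 1.36 and 0.91, so the spread lay in the vehicle group, and its value was -0.51 without vehicle replicate 3 and -0.11 without vehicle replicate 1. Limma adjusted p for the 4 probes lay between 0.661 and 0.698. RefSeq lists several transcripts of Txnrd1, and which of them each probe reads was not determined.

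Txn1 (NM_053800), thioredoxin, the small disulfide reductase that Txnrd1 recharges, had log2 levels of 7.29, 7.23 and 7.19 in treated animals, against 7.2, 7.0 and 7.43 in vehicle animals. The treated values lay inside the vehicle range. Its log2 fold change was 0.03 ± 0.12 (SE), with a 95% interval from -0.26 to 0.32 and a limma adjusted p of 0.967.

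Prdx1 (NM_057114), a peroxiredoxin that removes hydrogen peroxide and is recharged by thioredoxin, stood at 5.58, 5.67 and 5.58 in treated animals, against 5.48, 5.56 and 5.20 in vehicle animals. The groups were apart by a gap of 0.02, with vehicle replicate 3 well below the other vehicle animals. The log2 fold change was 0.20 ± 0.11 (SE), or 1.15-fold, with a limma adjusted p of 0.669, and it was 0.09 without vehicle replicate 3.

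Srxn1 (NM_001047858), sulfiredoxin, which repairs over-oxidised peroxiredoxins, had probes with log2 fold changes of opposite sign. Probe A_42_P842833 stood at 1.99, 0.96 and 1.37 in treated animals, against 1.55, 1.68 and 2.13 in vehicle animals. Probe A_42_P703664, which was dim at 45.2 to 62.2 units, stood at -4.04, -4.08 and -4.11 in treated animals, against -4.33, -4.48 and -3.81 in vehicle animals. Both overlapped, and on both vehicle replicate 3 was the highest animal. The log2 fold changes were -0.35 ± 0.29 (SE) and 0.13 ± 0.18, with limma adjusted p of 0.769 and 0.864. The brighter probe ranged from -0.62 without treated replicate 1 to -0.11 without treated replicate 2, and the dimmer one from -0.0052 without vehicle replicate 2 to 0.33 without vehicle replicate 3.

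Osgin1 (NM_138504), oxidative stress induced growth inhibitor, had the largest standard error of the 17 probes. It stood at 1.2, 1.41 and 0.56 in treated animals, against 1.37, 0.40 and 0.71 in vehicle animals. Vehicle replicate 1 lay just below treated replicate 2, and treated replicate 3, the highest treated animal for Nqo1 and Pir, was the lowest here. The log2 fold change was 0.23 ± 0.32 (SE), with a 95% interval from -0.54 to 1.0 and a limma adjusted p of 0.869. It was 0.01 without vehicle replicate 2 and 0.50 without vehicle replicate 1.

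Relative to the vehicle mean of each probe, 11, 10 and 9 of the 17 probes were higher in treated replicates 1, 2 and 3, against 9, 7 and 9 in vehicle replicates 1, 2 and 3. The median deviation over the 17 probes was 0.17, 0.09 and 0.08 in the treated animals, against 0.04, -0.08 and 0.02 in the vehicle animals. The vehicle deviations sum to 0 on each probe by construction, so the vehicle counts and medians are not a like comparison for the treated ones. The highest deviations, 1.67 in treated replicate 3 and 1.48 in treated replicate 2, belonged to Nqo1. Over the 17 probes 58.8% of log2 fold changes were above 0, with a median of 0.13, against 47.4% and a median of -0.01 over all 41551 probes.

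**Figure D2:**
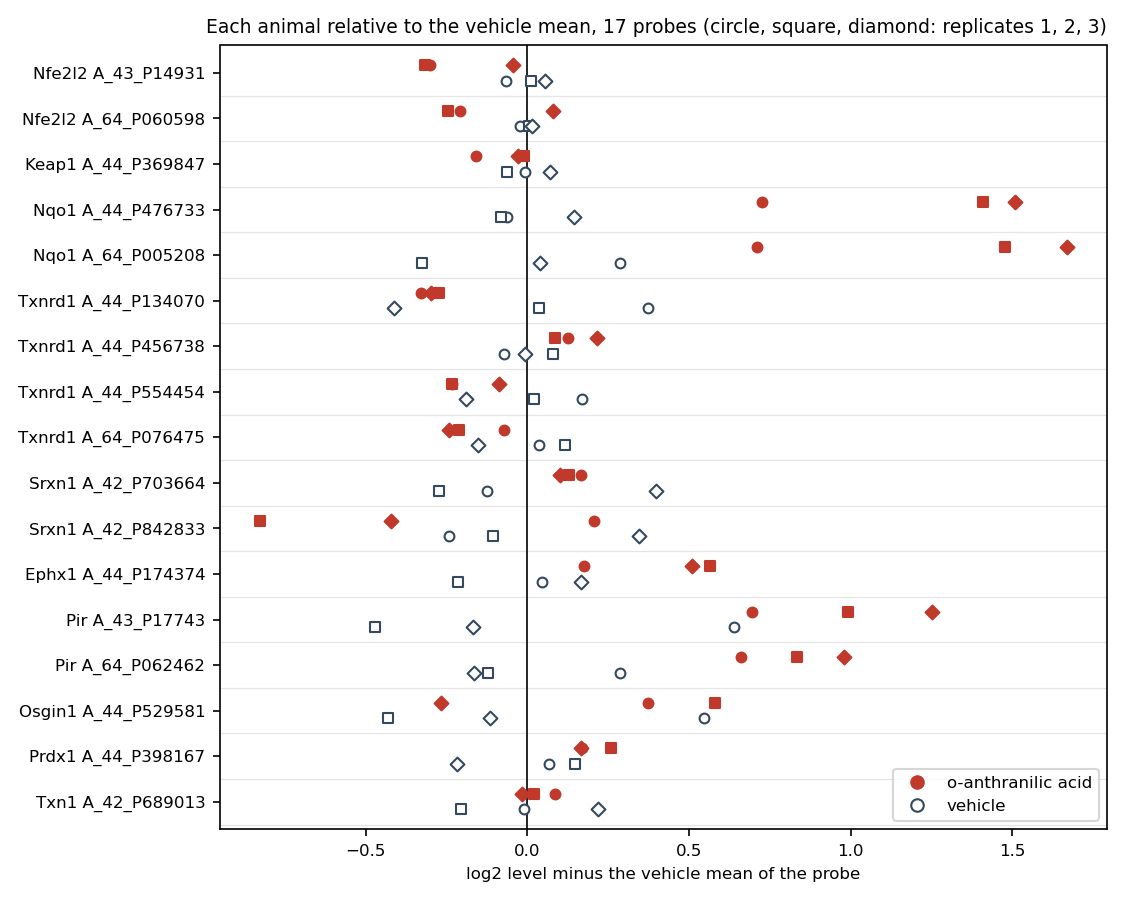
Log2 level of each animal minus the vehicle mean of the probe (horizontal axis) for the 17 probes, with treated animals as filled red symbols above the vehicle animals as open symbols in each row. The treated animals are clear of the vehicle animals for Nqo1 and for probe A_64_P062462 of Pir, while the groups of Keap1, Txn1, Srxn1 and Osgin1 interleave.

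Differences between these 10 genes were not tested against each other. The 2 probes of Nqo1 and of Pir kept groups that did not overlap in all of the 10 or 11 other settings with all 6 arrays in which each was measured. The probe of Ephx1 did so in 10 of 11, that of Prdx1 in 9 of 11 and probe A_44_P456738 of Txnrd1 in 8 of 11. Most of these settings could not change the overlap. Other filters, variance models, array weights, the replicate block and the brightest probe of each gene use the same values. The authors' values are the same signal on the same scale. With normexp and the other scalings, which could change it, 5 or 6 of the 17 probes had no overlap, against 7 in the fit reported.

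**Figure D3:**
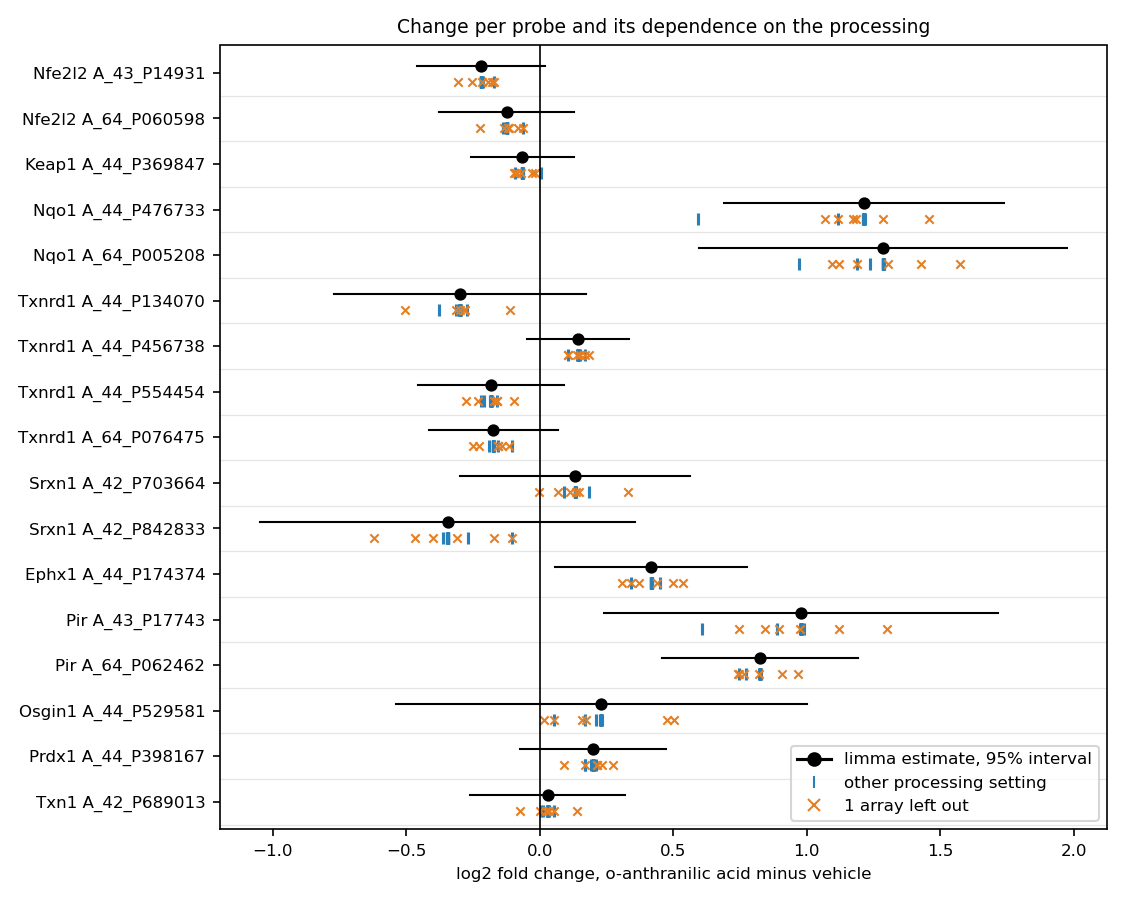
Log2 fold change of treated over vehicle animals (horizontal axis) for the 17 probes, with the limma estimate and its 95% interval in black, other processing settings as blue ticks and fits without 1 array as orange crosses. All estimates of Nqo1, Pir and Ephx1 lie above 0, and the intervals of 12 of the 17 probes include 0.

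The arrays were alike, with correlations across probes of at least 0.991 within the groups, and 63.7 to 68.3% of probes were well above background on treated arrays, against 66.0 to 69.3% on vehicle arrays. The vehicle arrays all lay in row 1 of slide 1 and treated replicates 1 and 3 in row 2, so group and slide row cannot be told apart on that slide. Treated replicate 2 was alone on slide 2, where the median local background was 73.0 units, against 32.0 to 39.0 on the other arrays. On slide 1 alone, without that animal, Nqo1 stood at 1.19 on A_64_P005208 and 1.12 on A_44_P476733, Pir at 0.82 on A_64_P062462 and 0.97 on A_43_P17743, and Ephx1 at 0.34. All 15 proximal tubule markers were well above background on all 6 arrays. Their summed linear level was 3481 to 3695 in treated and 3497 to 3898 in vehicle animals, in multiples of the array's 75th percentile. Summed levels of erythrocyte genes were 863 to 1063 in treated animals, against 668 to 894 in vehicle animals, with 6 of 6 genes above 0 and 0 called. The 6 liver genes summed to 1.13 to 1.73 in treated and 1.06 to 1.14 in vehicle animals, and the sums of macrophage and lymphocyte genes (79.0 to 102 and 92.1 to 113) overlapped. The part of these cells in the differences of Nqo1, Pir and Ephx1 was not tested.

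Transcripts of the proteins that work with Nrf2 were close to the background of all genes. Of 18 partners and regulators (small Maf proteins, Bach repressors, the Cul3 ligase and others) 17 were measured, by the probe of each gene with the highest mean signal, and their median log2 fold change was -0.0048, against -0.01 over 11913 named genes. None was called, 0 were higher at an unadjusted p under 0.05, against 3.45% of named genes, and 1 was lower, against 4.7%. That gene was Mafk, a small Maf protein and DNA-binding partner of Nrf2, with log2 levels of -2.06, -2.10 and -2.06 in treated animals, against -1.82, -1.88 and -1.83 in vehicle animals. The groups did not overlap, and the log2 fold change was -0.23 ± 0.07 (SE) with a limma adjusted p of 0.484. Bach1, a repressor that competes for the same elements, stood at 0.15 ± 0.07, and its other probes ran from -0.16 to 0.22. Maff, another small Maf, stood at 0.32 ± 0.23, and Rbx1, the RING subunit of the Cul3 ligase, at -0.07 ± 0.07.

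Antioxidant enzymes outside the 10 genes spanned a narrow range. Of 20 listed genes of the thioredoxin, peroxiredoxin and superoxide systems 19 were measured, with 7 log2 fold changes (36.8%) above 0, against 46.8% of named genes, a median of -0.03 and a range from -0.28 to 0.14. None was called, and at an unadjusted p under 0.05 0 were higher, against 3.45% of named genes, and 1 was lower, against 4.7%, which is near the background. This was Sesn2, a stress-induced sestrin that sustains Nrf2 signalling, at -0.28 ± 0.09 (SE), and Txnrd3 stood at -0.23 ± 0.13. Sod1 and Sod2, the cytosolic and mitochondrial superoxide dismutases, stood at 0.14 ± 0.10 and 0.08 ± 0.06.

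Other enzymes for quinones, epoxides and carbonyls had no gene at an unadjusted p under 0.05. Of 16 listed genes 13 were measured, with 4 (30.8%) above 0, against 46.8% of named genes, a median of -0.05 and log2 fold changes from -0.74 to 0.11. The median was 0.0092 without treated replicate 2 and 0.015 without vehicle replicate 1. The counts of 0 higher and 0 lower stand against 3.45% and 4.7% of named genes, shares at which a list of 13 would hold few or none. Ptgr2, which reduces a carbon-carbon double bond of 15-keto-prostaglandins, and Cbr4, a carbonyl reductase, stood at -0.18 ± 0.08 (SE) and -0.19 ± 0.14. Aldh3a1, an aldehyde dehydrogenase, and Por, the electron donor of microsomal cytochrome P450 enzymes, stood at 0.09 ± 0.10 and 0.06 ± 0.10. The other probe of Aldh3a1 stood at -0.28.

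Classic Nrf2 targets of the glutathione, haem, NADPH, aldo-keto reductase and efflux branches stood mostly above 0. Of 39 listed genes 36 were measured, with 26 (72.2%) above 0, against 46.8% of named genes, and a median of 0.28. At an unadjusted p under 0.05, 13 were higher, against 3.45% of named genes, and 1 was lower, against 4.7%, with 0 called. The list was chosen with earlier results of these samples known and is no independent evidence of a direction. Gstp1, a glutathione transferase, had log2 levels of 6.54, 7.32 and 6.63 in treated animals, against 5.64, 5.52 and 5.16 in vehicle animals. Its log2 fold change of 1.39 ± 0.24 (SE) was close to that of Nqo1. Other transferases differed: Gstm1, Gstm2 and Mgst1 stood at 2.38 ± 0.72, 0.61 ± 0.24 and 0.35 ± 0.11. Gsta1, Gsta2, Gsta3 and Gsta4 stood at -0.06, -0.23, -0.10 and -0.0077, with another probe of Gsta3 at 0.82. Hmox1 stood at 2.22 ± 1.76 and was raised in treated replicate 3 alone. Akr7a3, an aldehyde reductase, stood at 0.80 ± 0.11 on the log2 scale. Akr1b8, an aldo-keto reductase, went the other way at -1.89 ± 0.17, and Akr1a1 and Akr7a2 stood at -0.16 ± 0.10 and -0.10 ± 0.09.

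Because Nqo1 and Ephx1 also answer to other xenobiotic receptors, the targets of these receptors were set beside them. Of 10 aryl hydrocarbon receptor targets, Nqo1 among them, 4 were measured. All 4 were above 0 on the probe with the highest mean signal, against 46.8% of named genes, with a median of 0.33. At an unadjusted limma p under 0.05, 2 were higher, Nqo1 and Ugt1a6, against 3.45% of named genes, and 0 were lower, against 4.7%. Ahrr stood at 0.17 ± 0.07 (SE), with groups that did not overlap. Aldh3a1 stood at 0.09 on its probe with the highest mean signal and at -0.28 on its other probe. Ugt1a6, a glucuronosyltransferase that shares its last exons with other Ugt1a genes, stood at 0.49 ± 0.16 (SE), so signal from other members of the family cannot be told apart by probe name alone. Cyp1a1, Cyp1a2 and Cyp1b1, the cytochrome P450 genes most closely tied to this receptor, were not well above background on at least 3 arrays and were not tested. Of 12 CAR and PXR targets, Ephx1 among them, 6 were measured, 3 above 0 and 3 below, with a median of 0.01. Cyp2b1, Cyp2c6v1, Cyp3a2, Cyp3a9, Cyp3a23-3a1 and Ugt2b1 were not well above background on at least 3 arrays and were not tested. Abcc2, an efflux pump for conjugates that is also a Nrf2 target, stood at 0.75 ± 0.18, and Abcb1a and Abcb1b, P-glycoproteins, at -0.22 ± 0.18 and -0.04 ± 0.31. None of the measured genes of these lists passed limma's adjusted threshold.

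**Figure D4:**
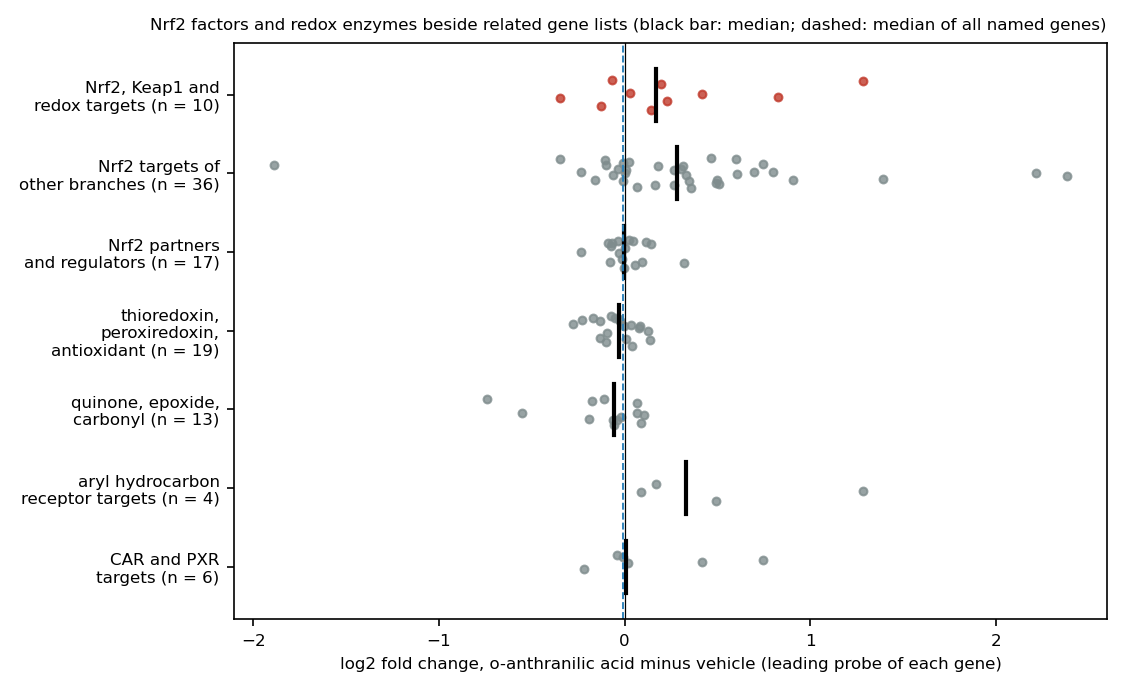
Log2 fold change of treated over vehicle animals (horizontal axis) for the probe of each gene with the highest mean signal, each point 1 gene, in the 10 genes described (red) and 6 related lists (grey), with medians as black bars and the median of all named genes as a dashed line. The medians are 0.17 for the 10 genes and 0.28 for the Nrf2 targets of other branches, and those of partners, antioxidant enzymes and carbonyl enzymes lie between -0.05 and -0.0048. Those of the 4 aryl hydrocarbon receptor targets and the 6 CAR and PXR targets are 0.33 and 0.01. Among the 10 genes Txnrd1 is shown at 0.14, while its other probes lie below 0.

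Genes with the most similar pattern were sought among 11903 other named genes, by the root mean square distance between log2 levels centred on the vehicle mean over the 6 arrays. Nearest to Nqo1 was Sbp, at a distance of 0.16 and a log2 fold change of 1.11 ± 0.22 (SE). Its deviations were 0.64, 1.27 and 1.41 in treated replicates 1, 2 and 3, the same order as for Nqo1. Zg16b, Stbd1, Gstp1 and Ceacam20 followed at distances of 0.21, 0.32, 0.37 and 0.38. The genes nearest to Nfe2l2, Kif3c, Hoxc4, Txnl4b, Cldn7 and Jak1, had log2 fold changes between -0.13 and -0.11. Those nearest to Txnrd1 (A_44_P456738), Rnf25, Zfp384, Ufl1, Nol12 and Mapk12, had log2 fold changes between 0.12 and 0.17. Patterns of so small a size are matched by many genes, and likeness over 6 arrays says nothing of shared control.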

How the data were processed

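The submitters' processing notes name Agilent Feature Extraction 10.7 as the quantification software. The authors' deposited scanner files hold intensity on a linear scale, background-subtracted and detrended but not normalised between arrays, per the file headers. A value table deposited by the authors gives a ratio, found here to be that signal over the array's 75th percentile, with no centring per gene. Its columns match the scanner files of other replicate numbers within the same group, so replicate names here follow the scanner files, and which numbering holds is unknown. Its column medians are those of linear values (0.103 to 0.106).

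Each array held 62976 spots. Removing control spots, external RNA controls and 47 probes flagged as outliers gave 61526 probes, with 0 saturated spots. Of these 27435 were named through unversioned RefSeq accessions. log2 signal minus the array's 75th percentile was used, probes well above background on at least 3 arrays were kept (41551), and every probe was its own feature. Group differences came from limma 3.58.1 under R 4.3.3 (lmFit, eBayes, Benjamini-Hochberg over all kept probes), which was tested on simulated data. Figures used matplotlib 3.10.9. The labels describe 3 separate animals per group, and 3 arrays per group limit the precision: the median standard error was 0.11. The array design refers to rn4, and the RefSeq windows to GRCr8.

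Members and lists were chosen with earlier results of these data known. Named genes are the 10 genes, the 2 genes of each list with the lowest p-values above and below 0, and the 5 nearest patterns of Nfe2l2, Nqo1 and Txnrd1; other genes were named after their values were seen. Marker lists also covered other tubule segments, podocytes, endothelium and fibroblasts, whose summed levels overlapped between the groups. Alternatives were normexp background correction (offset 50, on median signals), other scalings, the authors' values, other filters, 1 value per gene, other variance models, array weights, the replicate number and the slide as blocks, and each array left out.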

Additional observations from a re-analysis of the deposited data

How the results depend on the processing

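None of the 17 probes was called by limma in any of the 19 other settings, and 3 values of single probes changed sign. Keap1 was at 0.0023 after normexp background correction. Txn1 ranged from -0.074 to 0.14 and probe A_42_P703664 of Srxn1 from -0.0052 to 0.33 when 1 array was left out. The fit reported called 0 probes over the whole array, with 3512 at an unadjusted limma p under 0.05. The probes called were 6 with normexp, 6 with a robust, trended variance, 1 with a filter of all 6 arrays and 2 when probes were averaged per gene. With 1 array left out they were 0 to 4: 4 without treated replicate 2, 3 without treated replicate 1 and 3 without vehicle replicate 2. The slide as a block also gave 4, but it is the same fit as that without treated replicate 2, listed as a separate setting. For overlap between the groups, other filters, variance models, array weights and the replicate block use the same values and repeat the 7 of 17 by construction. The probes whose groups did not overlap, 7 of 17, were 5 to 7 in the other settings that kept all 6 arrays and each probe apart. They were 4 of 10 genes when probes were averaged and 7 to 11 with 1 array left out, 11 without vehicle replicate 3; fewer arrays overlap less often by construction, with 23.3 to 27.4% of all probes apart in these fits, against 14.9% with 6 arrays.

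The replicate numbers showed no sign of pairing the animals: deviations of arrays with the same number correlated at 0.01, -0.04 and -0.01. With 3 arrays per group this does not settle whether the animals were paired. With the replicate number as a block limma called 0 probes, with 3184 at an unadjusted p under 0.05. The median of the quinone, epoxide and carbonyl enzymes was 0.0092 without treated replicate 2, 0.015 without vehicle replicate 1 and -0.12 without treated replicate 1, and that of the CAR and PXR targets 0.19 without treated replicate 3. The causes of these changes were not tested. Because these scanner files were read without a mean signal column, normexp used the median signals.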
